A study of Capra hircus with 14 samples.

Results

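Enzymes that release polyunsaturated fatty acids from membranes and oxidise them were followed in goat (Capra hircus) cells through a change of culture medium. The genes were taken from 2 pathway maps of KEGG, a collection of metabolic pathways, as annotated in the deposited table: arachidonic acid metabolism and linoleic acid metabolism. Genes that the table also placed in the maps for retinol, steroid hormones, P450 metabolism of foreign compounds and drugs, or chemical carcinogenesis were left out, as was 1 further gene. This left 74 of the 30277 genes in the table, from 140 in either map. Of these 74, all stood in the arachidonic acid map and 32 also in the linoleic acid map. The gene set was picked with the difference between day 8 and day 0 in these libraries in view, so that difference is given only as a description, and tests were kept to the days between. Those days lie on the same course, so their tests are not free of that choice. Libraries of day 0 and day 8 also entered the filter and the fit.

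Arachidonic acid is held in membrane phospholipids and is freed mainly by phospholipases A2. Cyclooxygenases and downstream synthases turn it into prostaglandins, prostacyclin and thromboxane, lipoxygenases turn it into hydroperoxides and leukotrienes, and cytochromes P450 make epoxides or omega-hydroxylated acids. Glutathione peroxidases reduce the hydroperoxides, and soluble epoxide hydrolase opens the epoxides. In skin, epidermal lipoxygenases oxidise linoleate bound in ceramides, a step of water barrier formation.

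RNA was sequenced in 14 libraries, 2 on each of 7 days. The cells of days 1, 2, 3, 4, 6 and 8 had been switched to the R induction medium, changed once in 2 days, on dishes coated with Matrigel. The labels call them CiMEC, wild type in genotype and mammary epithelial by induction, and on day 8 they held primary colonies. The day 0 cells were wild-type goat fibroblasts called GEF, grown in DMEM with serum. The sources used here give neither the composition of the medium nor whether the libraries of a day came from separate cultures. The p-values therefore reflect library-to-library spread alone, and that spread may be technical. No library of cells kept in fibroblast medium to a later day was analysed here, so medium and time in culture cannot be told apart.

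Library totals were 20515126 to 24746010 estimated counts. Spearman correlations over genes were 0.995 to 0.997 in the 7 same-day pairs and 0.898 to 0.984 in the 84 pairs of different days. Fibroblast markers, 6 genes including collagens and VIM, summed to 26050 and 25130 CPM (read counts divided by the scaled library size, expressed for a shared total) in the 2 fibroblast libraries, but 4 basal epithelium markers also summed to 9383 and 8419 CPM there. Between days the markers moved widely. The basal list summed to 20530 and 21560 CPM on day 6 against 3058 and 3071 CPM on day 1, with 4 of 4 genes called higher (median log2 fold change 2.29). Differentiating keratinocyte markers summed to 287 and 296 CPM on day 6 against 10.0 and 10.6 CPM on day 1, with 5 of 5 higher (median 5.52). The fibroblast list summed to 18080 and 18150 CPM on day 6 against 28390 and 28510 CPM on day 1, with 5 of 6 lower and 1 higher (median -0.78). From step to step the course of the fibroblast list was uneven. On day 3, 6 of 6 were lower than on day 2 (median -0.86), against 24.1% of all tested genes. On day 4, 5 of 6 were higher than on day 3 (median 0.58), against 28.8%. On day 6, 6 of 6 were lower than on day 4 (median -0.46), against 31.2%. Between days 6 and 1, 26.3% of all tested genes were called higher and 30.7% lower. How far these shifts in markers account for the changes below was not tested, and in bulk RNA fewer cells of a type and less RNA per cell cannot be told apart.

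The 74 genes fell into 26 phospholipases, 7 lipoxygenases, 12 prostaglandin and thromboxane enzymes, 15 cytochromes P450 and epoxide hydrolases, 8 glutathione peroxidases, 4 enzymes of leukotrienes and glutathione conjugates, and 2 others. Enough counts for testing were found for 40, and 34 were not tested. Of those 34, 17 had 0 counts in each of the 14 libraries and 17 had at most 9 counts in a library. A gene near the filter could pass through the days on which it was high, so counts over the 40 do not describe the 74. Untested genes were most frequent among phospholipases, 16 of 26, where 9 had 0 counts throughout. In 9 of the 74 genes some counts were fractional. How the fractions arose is not known, so the levels of these genes are uncertain. The 9 include ALOX12, PLA2G12A, LOC102176672, LOC102175216 and LOC102184867.

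On day 6 against day 1, the main comparison inside the induction medium, lipoxygenase and P450 genes were mostly higher, the cytosolic phospholipases split, and most prostaglandin and thromboxane enzymes were lower. Of the 40 tested genes, 21 were called higher and 10 lower on day 6 (edgeR quasi-likelihood test, adjusted p under 0.05), and 9 were not called. Among all 15712 tested genes, 26.3% were called higher and 30.7% lower. At least 2-fold higher were 16 of the 40 and at least 2-fold lower 6 of the 40, against 12.2% and 8.51% of all tested genes. The median log2 fold change of the 40 was 0.66, against -0.04 over all tested genes. By group, 4 lipoxygenases were called higher, 0 lower and 2 not called (median 2.35). For phospholipases the counts were 5 higher, 3 lower and 2 not called (median 1.00), and for prostaglandin and thromboxane enzymes 2 higher, 4 lower and 1 not called (median -0.59). Cytochromes P450 and epoxide hydrolases had 6 higher, 1 lower and 1 not called (median 0.94). Glutathione peroxidases had 3 higher, 1 lower and 1 not called (median 0.23), and the leukotriene and conjugate enzymes 1 higher, 1 lower and 1 not called (median -0.89). These counts and medians include genes that entered the test only through late days on which they were high. They are PLA2G2F, LOC102182119, LOC102190572 and LOC108635409 (days 6 and 8) and the lipoxygenase LOC102169702 (day 8). The counts and medians are therefore not free of the filter. An F test over days 1, 2, 3, 4 and 6 called 34 of the 40, against 81.8% of all tested genes.

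**Figure D1:**
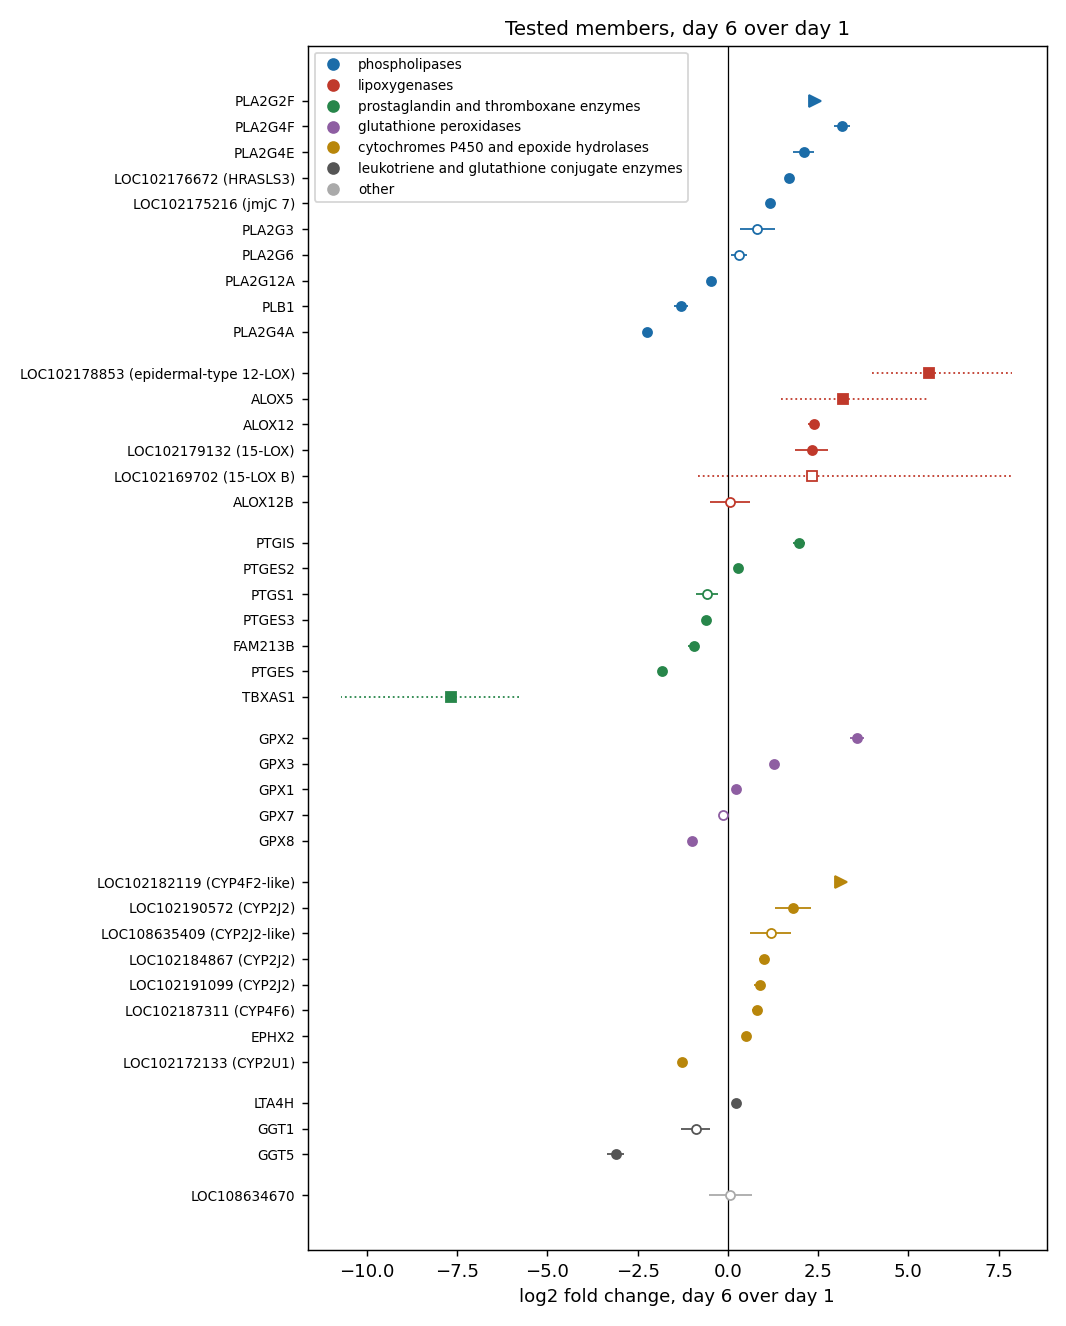
Log2 fold change of the 40 tested genes, day 6 over day 1, grouped by role (colour). Circles are fitted values with the standard error as bars, squares are ratios of summed counts with their 95% counting interval (dotted) where day 1 or day 6 had 1 to 3 counts, triangles are lower bounds where day 1 had 0 counts, and open symbols were not called. ALOX12B lies at 0.07 and the other lipoxygenases farther to the right, though the interval of LOC102169702 crosses 0. TBXAS1 lies farthest to the left.

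Among phospholipases, the enzyme with the highest level early on, PLA2G4A, fell, and its relatives PLA2G4E and PLA2G4F rose late. PLA2G4A encodes cytosolic phospholipase A2 alpha, which prefers arachidonate-containing phospholipids. PLA2G4A was at 58.5 and 63.7 CPM on day 0, 147 and 140.4 on day 1, 91.0 and 93.9 on day 2, 93.7 and 91.9 on day 3, 39.0 and 37.1 on day 4, 30.1 and 30.9 on day 6 and 19.7 and 18.7 on day 8. Its 2 highest libraries were those of day 1, and the libraries of days 6 and 1 did not overlap. In the day 6 libraries, relative to day 1, PLA2G4A fell by 2.24 ± 0.063 on the log2 scale (SE, adjusted p = 1.62e-19). The widest step lay between days 4 and 3, where it fell by 1.29 ± 0.062 (SE, adjusted p = 1.46e-13), while day 3 and day 2 differed by 0.01 ± 0.058 (adjusted p = 0.951). Fibroblast markers went up between days 4 and 3 in 5 of 6 cases (median 0.58). They went down between days 3 and 2 in 6 of 6 (median -0.86), and their part was not tested.

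PLA2G4F and PLA2G4E encode cytosolic phospholipases of the same family, and the mouse PLA2G4E protein is known as an N-acyltransferase of phosphatidylethanolamine. On successive days PLA2G4F stood at 0.0937 and 0.232 CPM on day 0, 0.787 and 0.752 on day 1, 0.285 and 0.300 on day 2, 1.37 and 1.25 on day 3, 1.25 and 1.11 on day 4, 6.55 and 7.30 on day 6 and 11.7 and 10.3 on day 8. The day 6 and day 8 libraries stood far above the other 10. For day 6 over day 1 the log2 fold change was 3.16 ± 0.234 (SE, adjusted p = 2.5e-11). For PLA2G4E the course was a dip followed by a late increase. By library, PLA2G4E was at 1.31 and 1.67 CPM on day 0, 0.879 and 0.973 on day 1, 0.238 and 0.0999 on day 2, 0.176 and 0.428 on day 3, 0.287 and 0.324 on day 4, 4.49 and 3.47 on day 6 and 5.13 and 5.29 on day 8. It was lowest on days 2 to 4, and both day 6 libraries lay above both day 1 libraries. Relative to day 1, PLA2G4E on day 6 rose by 2.10 ± 0.297 (log2, SE, adjusted p = 1.67e-06). From the day 4 level, day 6 PLA2G4E rose by 3.68 ± 0.367 (adjusted p = 1.09e-08) and PLA2G4F by 2.55 ± 0.218 (adjusted p = 8.74e-10). PLA2G4D, PLA2G4E and PLA2G4F lie close together in the RefSeq gene order of assembly ARS1.2, and PLA2G4D had too few counts to be tested.

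PLB1, phospholipase B, a membrane-bound enzyme that removes both fatty acids of a phospholipid, was highest in the middle of the course. PLB1 levels were 1.69 and 1.34 CPM on day 0, 5.09 and 6.15 on day 1, 6.13 and 7.69 on day 2, 8.86 and 10.4 on day 3, 7.19 and 7.72 on day 4, 2.25 and 2.34 on day 6 and 2.66 and 2.75 on day 8. All 8 libraries of days 1 to 4 were above the 6 libraries of days 0, 6 and 8. The log2 fold change of PLB1, day 6 over day 1, was -1.29 ± 0.19 (SE, adjusted p = 2.84e-06). LOC102176672, described in the table as HRAS-like suppressor 3 with the orthology of the phospholipase PLA2G16, rose early. It was at 29.7 and 31.5 CPM on day 6 against 9.81 and 9.11 CPM on day 1, and had already reached 27.1 and 25.03 CPM on day 2. LOC102176672 rose by 1.69 ± 0.089 between days 6 and 1 (log2, SE, adjusted p = 3.48e-14). LOC102175216, described as jmjC domain-containing protein 7 but with the orthology of cytosolic phospholipase A2, was at 13.9 and 13.2 CPM on day 6 against 6.39 and 5.62 CPM on day 1, a rise of 1.18 ± 0.125 (adjusted p = 1.64e-08). PLA2G12A, a secretory phospholipase, was at 49.2 and 47.3 CPM on day 6 against 68.3 and 64.0 CPM on day 1 and fell by 0.45 ± 0.075 (adjusted p = 1.51e-05).

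PLA2G2F, a secretory phospholipase that in mice is expressed in the upper epidermis, had 0 counts in all 10 libraries of days 0 to 4. It had 16 counts in the 2 day 6 libraries together, at least 5.36-fold higher than on day 1 when 3 counts over a day are taken as the floor. The call (adjusted p = 0.00519) was lost with DESeq2 (adjusted p = 0.439) and without day 6 replicate 2 (0.0996). PLA2G2F entered the test only through days 6 and 8, the days on which it was high. PLA2G6, the calcium-independent phospholipase, and PLA2G3, a secretory one, were not called (log2 fold changes 0.30 and 0.82, adjusted p = 0.254 and 0.159), and their day 6 and day 1 libraries overlapped. The other 4 of 5 neighbouring genes described like LOC102176672 had at most 3 counts in a library. The other 8 genes in the run of 9 neighbouring secretory phospholipase genes that holds PLA2G2F were not tested for want of counts.

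Per length of transcript, the makeup of the phospholipases changed. PLA2G4A supplied 21.9% of their summed CPM per kb on day 6 in each of the 2 libraries, against 64.4% and 65.1% on day 1. LOC102176672 supplied 34.3% and 35.5% on day 6 against 6.84% and 6.71% on day 1, and PLA2G12A 27.0% and 25.2% against 22.6% and 22.3%. On days 0, 1, 2 and 3 PLA2G4A ranked first in the group, and on days 4, 6 and 8 LOC102176672 did. The summed CPM per kb of the group averaged 47.96 on day 6 against 76.4 on day 1.

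**Figure D2:**
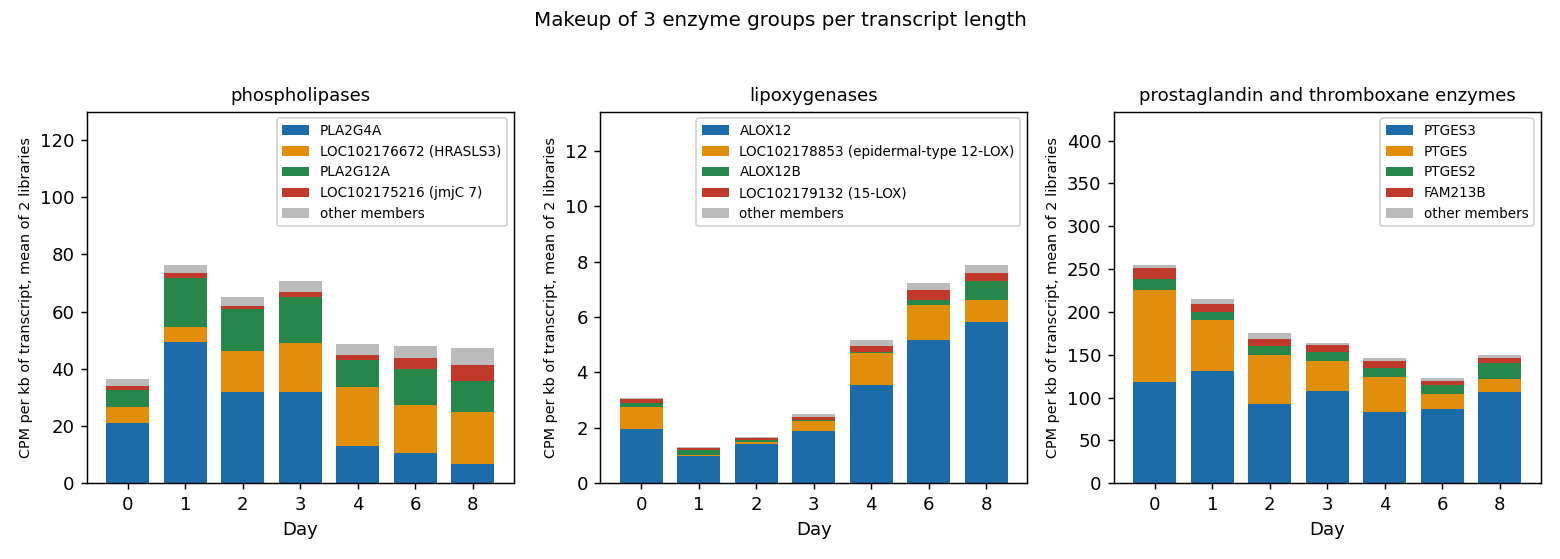
Stacked levels in CPM per kb of transcript, mean of the 2 libraries of each day, for phospholipases, lipoxygenases, and prostaglandin and thromboxane enzymes, with the 4 leading genes of each group in colour and the rest in grey. PLA2G4A makes up most of the phospholipase bar on day 1 (64.8%) and less of it on day 6 (21.9%), while PTGES3 leads the prostaglandin bar on each day.

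Of the 6 tested lipoxygenases 4 were called higher on day 6 than on day 1 and none lower, against 26.3% and 30.7% of all tested genes. ALOX12 encodes the 12S-lipoxygenase best known from platelets and also found in skin. ALOX12 had 6.23 and 6.26 CPM on day 0, 3.56 and 2.79 on day 1, 4.95 and 4.10 on day 2, 5.07 and 7.04 on day 3, 11.9 and 10.7 on day 4, 16.6 and 16.4 on day 6 and 19.4 and 17.7 on day 8. Day 1 held the 2 lowest libraries, and the day means were higher on each later day. In the day 6 libraries, relative to day 1, ALOX12 rose by 2.38 ± 0.154 on the log2 scale (SE, adjusted p = 2.08e-12). The step between days 4 and 3 was 0.89 ± 0.143 (adjusted p = 1.46e-05) and that between days 6 and 4 was 0.55 ± 0.127 (adjusted p = 0.000814). ALOX12 and the next 2 genes described here lie close together in the RefSeq gene order.

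The first, LOC102178853, is described as an arachidonate 12-lipoxygenase of epidermal type, a class studied in mouse skin. The libraries of LOC102178853 gave 1.97 and 2.13 CPM on day 0, 0 and 0.133 on day 1, 0.0951 and 0.350 on day 2, 0.970 and 0.739 on day 3, 3.02 and 2.87 on day 4, 3.67 and 2.75 on day 6 and 2.47 and 1.64 on day 8. It was nearly undetected on day 1, with 0 and 3 counts, although the day 0 libraries stood near 2 CPM. Over the 2 libraries it had 141 counts on day 6 against 3 on day 1, a ratio of 47.2 (95% counting interval 15.8 to 232), and was called higher (adjusted p = 9.92e-09). Between days 4 and 3 it rose by 1.78 ± 0.35 (adjusted p = 0.000163). The second, LOC102179132, is described as arachidonate 15-lipoxygenase. Values for LOC102179132 were 0.515 and 0.557 CPM on day 0, 0.278 and 0.310 on day 1, 0.380 and 0.150 on day 2, 0.485 and 0.428 on day 3, 0.766 and 1.06 on day 4, 1.33 and 1.67 on day 6 and 1.38 and 1.162 on day 8. Both day 6 libraries were above both day 1 libraries. For day 6 over day 1 the log2 fold change was 2.33 ± 0.457 (SE, adjusted p = 0.000125).

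ALOX12B encodes the 12R-lipoxygenase of the epidermis, loss of which causes ichthyosis in humans. ALOX12B was at 0.234 and 0.557 CPM on day 0, 0.741 and 0.266 on day 1, 0.190 and 0.0999 on day 2, 0.176 and 0.156 on day 3, 0.144 and 0.0925 on day 4, 0.458 and 0.586 on day 6 and 1.66 and 1.98 on day 8. The day 6 libraries lay between the 2 day 1 libraries, which differed widely from each other, and the day 8 libraries were the highest. Day 6 and day 1 differed by 0.07 ± 0.548 (adjusted p = 0.929, not called), a value of -0.50 without day 1 replicate 2 and -0.12 without day 6 replicate 2. Between days 6 and 4 it rose by 2.10 ± 0.729 (adjusted p = 0.018), a call lost without day 4 replicate 1 (0.0521), day 4 replicate 2 (0.119) or day 6 replicate 2 (0.0891).

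ALOX5, the 5-lipoxygenase that starts leukotriene synthesis, had 27 counts on day 6 against 3 on day 1, a ratio of 9.04 (95% counting interval 2.78 to 46.6). The call (adjusted p = 0.00427) was lost without day 1 replicate 2 (0.0779) or day 6 replicate 2 (0.0907), and without day 1 replicate 1 the fitted log2 fold change was 6.76 in place of 3.07, since the remaining day 1 library had 0 counts. Leukocyte and mast cell markers, given here because these cells are a usual source of ALOX5, summed to 11.7 and 12.1 CPM on day 6 against 53.0 and 51.0 CPM on day 1, mostly from CD14. PTPRC, TYROBP, CPA3, MS4A2 and HDC had 0 counts in all libraries, and of 3 tested markers 1 was higher, 1 lower and 1 not called (median -0.60). LOC102169702, described as arachidonate 15-lipoxygenase B, had 5 counts on day 6 against 1 on day 1, a ratio of 5.02 with an interval of 0.562 to 238, and was not called (adjusted p = 0.234). With 13 and 14 counts on day 8 and at most 4 in any other library, it entered the test only through day 8. The seventh lipoxygenase gene, LOC102169994, had 0 counts in all libraries. Per length, ALOX12 supplied 71.6% and 71.5% of the summed lipoxygenase level on day 6 against 73.9% and 78.6% on day 1. The sum averaged 7.24 CPM per kb on day 6 against 1.31 CPM per kb on day 1.

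Of the 7 tested prostaglandin and thromboxane enzymes 4 were called lower on day 6 than on day 1 and 2 higher, against 30.7% and 26.3% of all tested genes. The strongest drop was that of TBXAS1, thromboxane A synthase. On successive days TBXAS1 stood at 6.14 and 6.36 CPM on day 0, 9.07 and 9.25 on day 1, 11.1 and 11.04 on day 2, 3.39 and 2.96 on day 3, 1.39 and 1.99 on day 4, 0.0458 and 0.0451 on day 6 and 0 and 0.129 on day 8. Levels were high through day 2, lower on days 3 and 4, and close to 0 from day 6. Over both libraries there were 2 counts on day 6 against 405 on day 1, a ratio 202-fold lower (95% counting interval 55.4 to 1670, adjusted p = 2.05e-14). Between days 3 and 2 it fell by 1.81 ± 0.173 (adjusted p = 1.23e-08), a step in which 6 of 6 fibroblast markers were lower (median -0.86). Between days 4 and 3 it fell by 0.90 ± 0.229 (adjusted p = 0.00209), while 5 of 6 fibroblast markers were higher (median 0.58). The widest step lay between days 6 and 4, from 29 and 43 counts to 1 and 1 (adjusted p = 5.19e-08). Fibroblast markers were lower there in 6 of 6 cases (median -0.46). Over all tested genes the shares in these steps, in order, were 24.1% lower, 28.8% higher and 31.2% lower. The part of these markers was not tested. Platelets are a known source of TBXAS1 and ALOX12, and their markers summed to 4.58 and 5.90 CPM on day 6 against 2.22 and 2.57 CPM on day 1, with 1 of 2 tested genes higher and 1 not called (median 0.56). The part of platelet or leukocyte RNA in these results was not tested.

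PTGES, the inducible microsomal prostaglandin E synthase, was lower on day 6 than on day 1. By library, PTGES was at 114 and 101 CPM on day 0, 58.1 and 60.2 on day 1, 54.3 and 59.9 on day 2, 33.8 and 37.7 on day 3, 38.5 and 43.0 on day 4, 16.5 and 17.0 on day 6 and 16.6 and 15.2 on day 8. The libraries of days 6 and 8 were the 4 lowest, and those of day 0 the 2 highest. Day 1 over day 0, given without a test, had a log2 fold change of -0.86 ± 0.074. Relative to day 1, PTGES on day 6 fell by 1.82 ± 0.088 (log2, SE, adjusted p = 6.85e-15). Between days 3 and 2 the drop was 0.67 (log2 fold change -0.67 ± 0.08, adjusted p = 3.22e-07), and between days 6 and 4 the log2 fold change was -1.29 ± 0.091 (adjusted p = 3.59e-11). The fibroblast markers were lower in both of these steps, 6 of 6 each time. Between days 4 and 3, when 5 of 6 of them were higher, PTGES differed by 0.19 ± 0.082 (adjusted p = 0.0596, not called). The part of these markers was not tested. PTGES3, a cytosolic prostaglandin E synthase also known as the HSP90 co-chaperone p23, was at 182 and 172 CPM on day 6 against 269 and 265 CPM on day 1 and fell by 0.59 ± 0.057 (adjusted p = 2.72e-09). PTGES2, a membrane-associated prostaglandin E synthase, was at 21.7 and 23.6 CPM on day 6 against 19.1 and 18.4 CPM on day 1. Its rise of 0.27 ± 0.098 (adjusted p = 0.0212) lost its call without day 1 replicate 1 (0.057), day 1 replicate 2 (0.116) or day 6 replicate 2 (0.16). FAM213B encodes prostamide and prostaglandin F synthase. FAM213B levels were 11.1 and 10.16 CPM on day 0, 7.64 and 7.52 on day 1, 6.18 and 6.64 on day 2, 6.61 and 6.03 on day 3, 6.28 and 6.93 on day 4, 4.13 and 3.74 on day 6 and 3.66 and 5.17 on day 8. It was highest on day 0 and lowest on days 6 and 8. The log2 fold change of FAM213B, day 6 over day 1, was -0.95 ± 0.159 (SE, adjusted p = 1.86e-05).

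PTGIS, prostacyclin synthase, and the smaller case of PTGES2 were the 2 enzymes of the group called higher. PTGIS had 5.01 and 3.67 CPM on day 0, 2.82 and 3.45 on day 1, 2.95 and 4.35 on day 2, 2.34 and 2.65 on day 3, 8.00 and 8.14 on day 4, 11.7 and 12.9 on day 6 and 13.4 and 13.6 on day 8. The day 4, 6 and 8 libraries were all above the 8 libraries of days 0 to 3. PTGIS rose by 1.97 ± 0.168 between days 6 and 1 (log2, SE, adjusted p = 3.53e-10). The increase lay mainly between days 4 and 3, at 1.69 ± 0.182 (adjusted p = 4.75e-08). In that step 5 of 6 fibroblast markers (median 0.58) and 4 of 4 basal epithelium markers (median 0.58) were higher too. The share over all tested genes was 28.8%, and the part of either list was not tested. Endothelium markers, given because vessels express PTGIS, summed to 2.38 and 1.80 CPM on day 6 against 8.10 and 7.21 CPM on day 1, with 1 of 3 tested genes lower and 2 not called (median -2.08), and CDH5 had at most 1 count in a library. PTGS1, cyclooxygenase 1, was at 1.33 and 1.17 CPM on day 6 against 2.18 and 1.55 CPM on day 1 and was not called (log2 fold change -0.57 ± 0.308, adjusted p = 0.12). Its mean was highest on day 4, with a rise of 1.05 ± 0.269 between days 4 and 3 (adjusted p = 0.0022) and a drop between days 6 and 4, where it fell by 1.47 ± 0.286 (adjusted p = 0.000129). HPGDS, the haematopoietic prostaglandin D synthase, had 4 counts in the 2 day 6 libraries and 0 on day 1, and was not tested. LOC106502686, described as prostaglandin-H2 D-isomerase, had at most 4 counts in a library, and 3 genes with the orthology of PTGES3 had 0 counts in all libraries. Per length, PTGES supplied on average 13.6% of the summed level of the group on day 6 against 27.5% on day 1, and PTGES3 supplied 70.8% against 61.1%. The sum averaged 123 CPM per kb on day 6 against 215 CPM per kb on day 1.

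**Figure D3:**
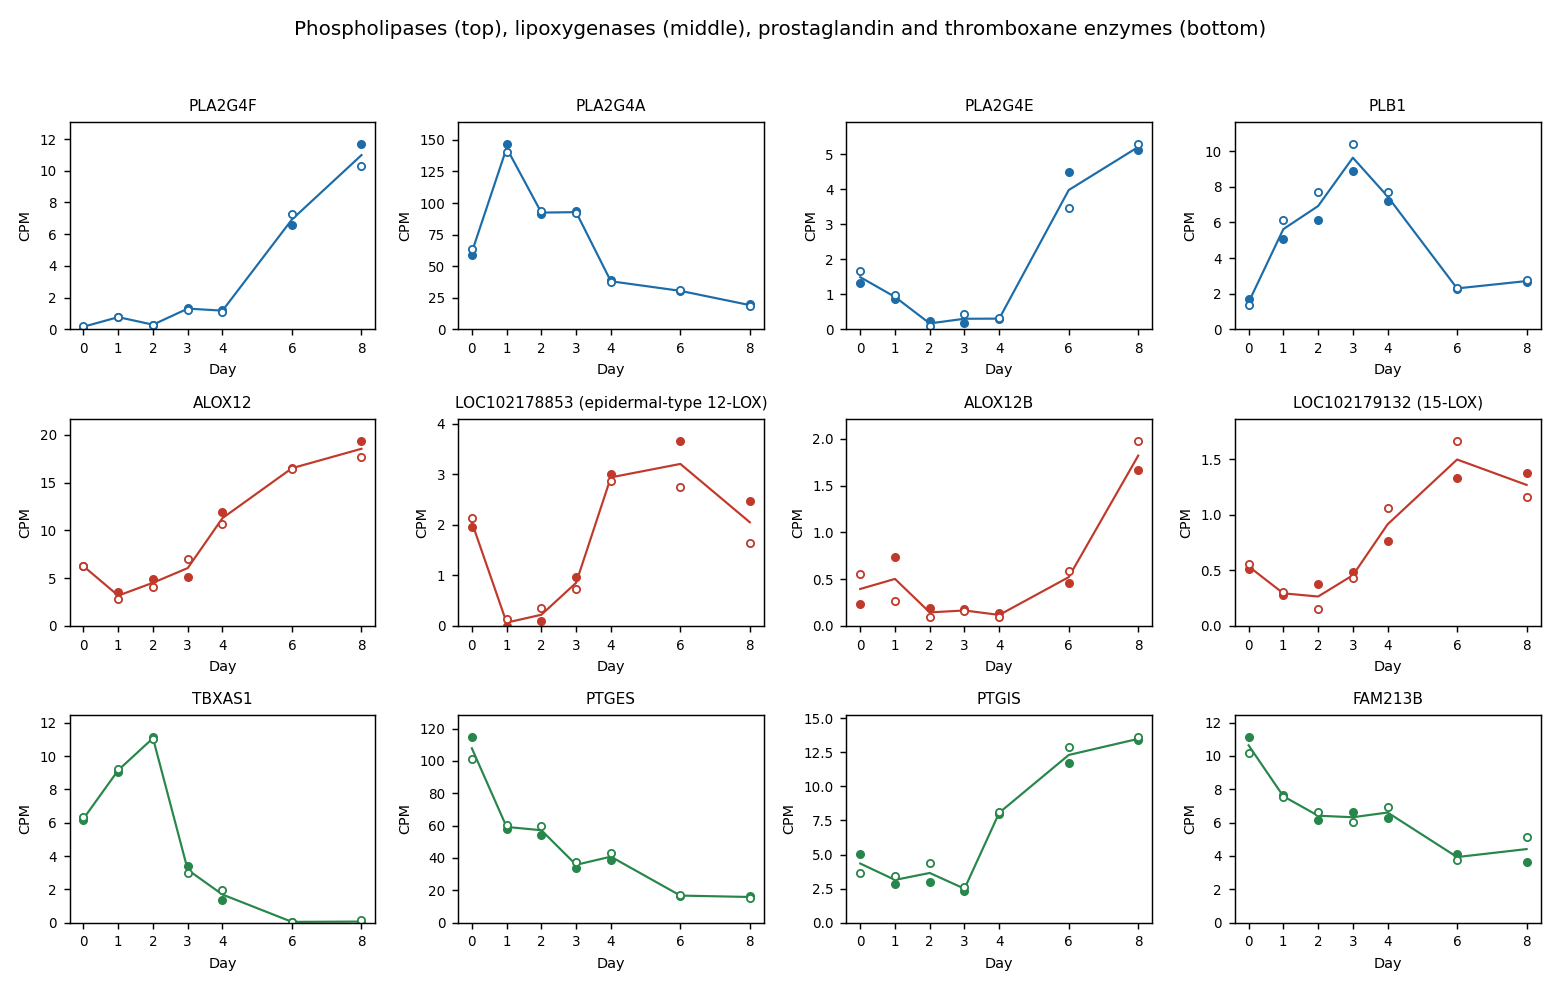
Level in CPM (linear axis from 0) against day for the 4 genes of each of 3 groups with the widest range of day means. Filled and open points are the 2 libraries of a day and lines join their means. PLA2G4F and PLA2G4E have their highest points on days 6 and 8, PTGIS on days 4, 6 and 8, and PLA2G4A and TBXAS1 are lower on day 6 than on day 1.

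GPX1, the cytosolic glutathione peroxidase, had the highest level per length of the 74 genes on each of the 7 days, at 242 CPM per kb on day 6 against 206 CPM per kb on day 1. The libraries of GPX1 gave 465 and 434 CPM on day 0, 185 and 189.7 on day 1, 298 and 302 on day 2, 277 and 268 on day 3, 306 and 327 on day 4, 215 and 225 on day 6 and 244 and 248 on day 8. Day 0 held the 2 highest libraries and day 1 the 2 lowest, with the later days between. In the day 6 libraries, relative to day 1, GPX1 rose by 0.23 ± 0.051 on the log2 scale (SE, adjusted p = 0.000458). GPX2, a peroxidase of the gut and other epithelia, had the largest rise of the group. Values for GPX2 were 0.609 and 0.464 CPM on day 0, 0.787 and 0.885 on day 1, 0.333 and 0.400 on day 2, 0.309 and 0.544 on day 3, 1.34 and 1.25 on day 4, 10.1 and 10.0 on day 6 and 19.6 and 22.4 on day 8. Levels were under 2 CPM in all 10 libraries of days 0 to 4 and at least 10.0 CPM in the 4 later ones. For day 6 over day 1 the log2 fold change was 3.58 ± 0.204 (SE, adjusted p = 1.8e-13). Relative to day 4 it rose by 2.95 ± 0.189 (adjusted p = 6.78e-12).

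GPX3 encodes the secreted peroxidase of plasma. GPX3 was at 60.5 and 55.9 CPM on day 0, 36.9 and 36.4 on day 1, 53.9 and 59.5 on day 2, 71.7 and 71.9 on day 3, 134 and 128 on day 4, 88.4 and 89.9 on day 6 and 51.7 and 48.0 on day 8. It was highest on day 4 and lowest on day 1. Relative to day 1, GPX3 on day 6 rose by 1.28 ± 0.066 (log2, SE, adjusted p = 2.29e-14). Relative to day 4 it fell by 0.56 ± 0.06 (adjusted p = 4.02e-08). GPX8, an enzyme of the endoplasmic reticulum, was lower on day 6 than on day 1. On successive days GPX8 stood at 65.2 and 63.1 CPM on day 0, 103 and 103 on day 1, 84.6 and 83.9 on day 2, 64.7 and 59.2 on day 3, 43.5 and 47.7 on day 4, 53.0 and 50.2 on day 6 and 24.9 and 25.6 on day 8. Its day 1 libraries were the highest and its day 8 libraries the lowest. The log2 fold change of GPX8, day 6 over day 1, was -0.997 ± 0.062 (SE, adjusted p = 9.92e-13). GPX7, also of the endoplasmic reticulum, was at 30.3 and 33.1 CPM on day 6 against 36.4 and 32.9 CPM on day 1, with overlapping libraries (log2 fold change -0.13 ± 0.08, adjusted p = 0.181, not called). GPX6 and its neighbour LOC102168954 had 0 counts in all libraries.

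Among the tested cytochromes P450, 3 genes described as CYP2J2 epoxygenases and 2 described as CYP4F hydroxylases were called higher on day 6 than on day 1, and LOC102172133 was called lower. LOC102184867 is described as CYP2J2, which in humans makes arachidonic acid epoxides. By library, LOC102184867 was at 6.89 and 7.10 CPM on day 0, 9.30 and 7.39 on day 1, 7.89 and 7.89 on day 2, 11.1 and 11.2 on day 3, 13.0 and 14.6 on day 4, 19.2 and 14.2 on day 6 and 24.6 and 24.5 on day 8. Both day 6 libraries lay above both day 1 libraries, and day 8 was highest. LOC102184867 rose by 1.000 ± 0.132 between days 6 and 1 (log2, SE, adjusted p = 5.71e-07). Of its 3 neighbours with the same description, LOC102191099 was at 7.75 and 7.66 CPM on day 6 against 3.70 and 4.601 CPM on day 1 (rise of 0.89 ± 0.152, adjusted p = 2.22e-05). LOC102190572 was at 0.963 and 1.58 CPM against 0.324 and 0.398 CPM (rise of 1.80 ± 0.505, adjusted p = 0.00416). Without day 6 replicate 2 its rise was 1.40 and the call was lost. LOC102190572 had at most 12 counts in each library of days 0 to 4 and 19 to 35 on days 6 and 8. It therefore entered the test only through days 6 and 8, the days on which it was high. LOC108635409, a CYP2J2-like gene outside that run, was not called (log2 fold change 1.19 ± 0.572, adjusted p = 0.0807). With at most 10 counts in each library of days 0 to 4, it too entered the test only through days 6 and 8. The levels of such similar copies are uncertain. The third neighbour, LOC102190840, had at most 2 counts in a library and was not tested.

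LOC102187311 is described as CYP4F6, a fatty acid hydroxylase name from the rat. LOC102187311 levels were 15.7 and 16.6 CPM on day 0, 6.29 and 5.49 on day 1, 5.18 and 5.25 on day 2, 5.78 and 5.25 on day 3, 6.51 and 8.46 on day 4, 10.9 and 9.82 on day 6 and 12.1 and 13.1 on day 8. It was highest on day 0, lowest on days 1 to 3, and higher again afterwards. In the day 6 libraries, relative to day 1, LOC102187311 rose by 0.82 ± 0.137 on the log2 scale (SE, adjusted p = 1.76e-05). LOC102182119, described as similar to CYP4F2, had 26 counts on day 6 and 0 on day 1, at least 8.71-fold higher against a floor of 3 counts over the day (adjusted p = 0.000106). It had at most 8 counts in each library of days 0 to 4, so it entered the test only through days 6 and 8, the days on which it was high. The other 4 genes of a run of 6 CYP4F neighbours that holds both had at most 9 counts in a library and were not tested. LOC102172133 is described as CYP2U1, which in humans hydroxylates long-chain fatty acids. LOC102172133 had 22.3 and 24.8 CPM on day 0, 35.4 and 37.4 on day 1, 33.7 and 32.0 on day 2, 23.0 and 21.2 on day 3, 21.5 and 21.1 on day 4, 16.0 and 14.4 on day 6 and 12.4 and 10.8 on day 8. Day 1 held its 2 highest libraries and day 8 its 2 lowest. For day 6 over day 1 the log2 fold change was -1.26 ± 0.09 (SE, adjusted p = 1.27e-11).

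EPHX2, soluble epoxide hydrolase, converts epoxides of fatty acids to diols. The libraries of EPHX2 gave 8.76 and 10.3 CPM on day 0, 11.4 and 8.72 on day 1, 20.4 and 20.4 on day 2, 22.2 and 20.6 on day 3, 23.1 and 24.4 on day 4, 13.98 and 14.7 on day 6 and 11.3 and 11.7 on day 8. It was highest on days 2, 3 and 4 and lowest on days 0, 1 and 8. Relative to day 1, EPHX2 on day 6 rose by 0.51 ± 0.116 (log2, SE, adjusted p = 0.00059). Without day 1 replicate 2 the value was 0.33 and was still called. The larger changes were a rise of 1.02 ± 0.112 between days 2 and 1 (adjusted p = 6.59e-08) and a drop between days 6 and 4, where it fell by 0.73 ± 0.105 (adjusted p = 2.8e-06).

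Among the enzymes of leukotrienes and glutathione conjugates, LTA4H held 97.7% of the summed CPM per kb on day 6 against 85.8% on day 1. It hydrolyses leukotriene A4 to leukotriene B4. Values for LTA4H were 40.2 and 38.9 CPM on day 0, 50.3 and 53.2 on day 1, 62.0 and 59.0 on day 2, 69.8 and 62.6 on day 3, 65.8 and 73.1 on day 4, 60.5 and 60.8 on day 6 and 65.1 and 63.9 on day 8. Day 6 libraries were slightly above day 1 libraries, without overlap. The log2 fold change of LTA4H, day 6 over day 1, was 0.23 ± 0.068 (SE, adjusted p = 0.00615). That call was lost without day 1 replicate 1 (log2 fold change 0.19, adjusted p = 0.0808). GGT5 removes glutamate from leukotriene C4 to give leukotriene D4. GGT5 was at 9.79 and 8.58 CPM on day 0, 8.38 and 9.38 on day 1, 3.99 and 5.45 on day 2, 1.63 and 2.26 on day 3, 1.96 and 2.54 on day 4, 1.10 and 0.946 on day 6 and 0.332 and 0.387 on day 8. The 4 libraries of days 6 and 8 were the lowest and those of days 0 and 1 the highest. GGT5 fell by 3.11 ± 0.227 between days 6 and 1 (log2, SE, adjusted p = 1.96e-11). GGT1 is a gamma-glutamyltransferase of broader substrates. On successive days GGT1 stood at 1.78 and 1.53 CPM on day 0, 1.11 and 1.504 on day 1, 0.903 and 1.05 on day 2, 0.573 and 0.583 on day 3, 0.671 and 0.925 on day 4, 0.779 and 0.631 on day 6 and 0.522 and 0.215 on day 8. The libraries of days 0 and 1 were the 4 highest. Day 6 and day 1 did not overlap, but the log2 fold change of -0.89 ± 0.399 was not called (adjusted p = 0.0614). LTC4S, leukotriene C4 synthase, had too few counts to be tested. The 2 remaining genes carry the orthologies of both prostacyclin synthase and a cytokine, TWEAK. Of these LOC108634670 was tested. By library, LOC108634670 was at 0.141 and 0.371 CPM on day 0, 0.417 and 0.575 on day 1, 0.428 and 0.400 on day 2, 0.132 and 0.583 on day 3, 0.335 and 0.508 on day 4, 0.504 and 0.541 on day 6 and 0.285 and 0.0861 on day 8. Its libraries overlapped across days, and day 6 and day 1 differed by 0.07 ± 0.594 (adjusted p = 0.928, not called), or by -0.14 without day 1 replicate 1.

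**Figure D4:**
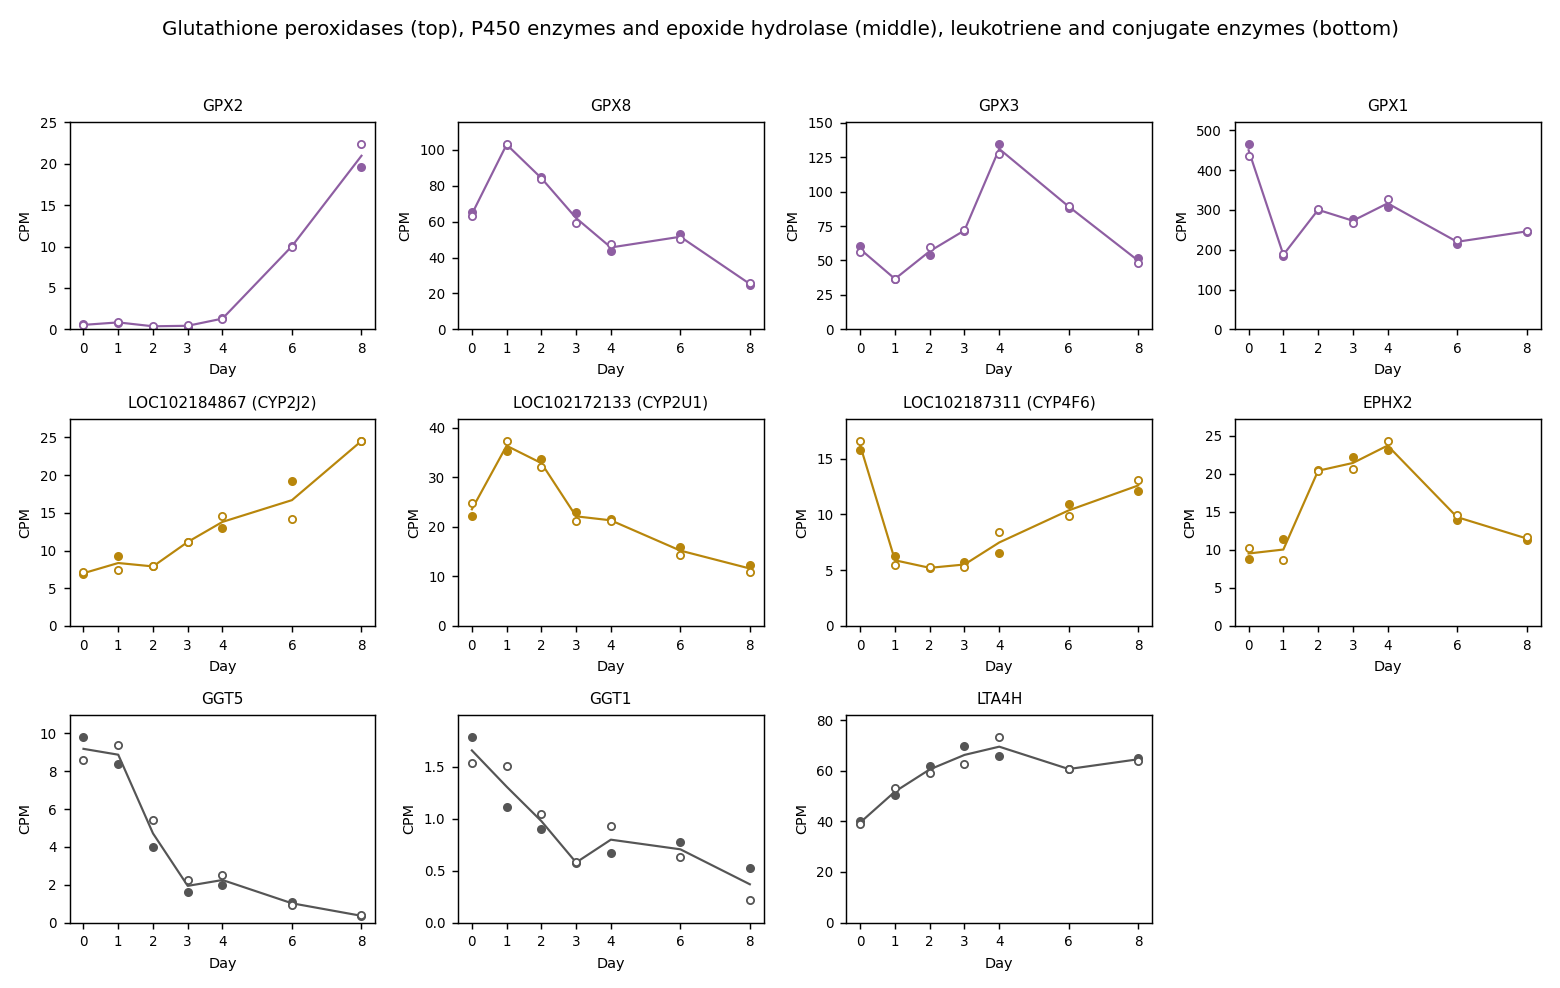
Level in CPM (linear axis from 0) against day for glutathione peroxidases, cytochromes P450 with EPHX2, and enzymes of leukotrienes and glutathione conjugates. Filled and open points are the 2 libraries of a day and lines join their means. GPX2 has its highest points on days 6 and 8, the means of GPX3 and EPHX2 are highest on day 4, and GGT5 and LOC102172133 are lower on day 6 than on day 1.

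From one sampled day to the next the 40 tested genes moved in both directions, as did all tested genes. Most of the counts below lay near the shares over all tested genes and are not read as particular to these 40. Day 2 against day 1 gave 7 higher and 10 lower, where 25.3% and 23.1% of all tested genes were called. Day 3 against day 2 gave 10 higher and 8 lower (21.2% and 24.1% of all). Leaving out day 2 replicate 1 reduced the lower calls of the first step to 5, and leaving out day 2 replicate 2 reduced the higher calls of the second to 6. Day 4 against day 3 gave 12 higher and 6 lower (28.8% and 21.6% of all), and day 6 against day 4 gave 14 higher and 13 lower (23.0% and 31.2% of all). In that last step the calls were spread over the groups, with 5 phospholipases higher and 3 lower, 2 lipoxygenases higher and 0 lower, and 1 prostaglandin enzyme, PTGIS, higher and 4 lower.

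Day 8 against day 0, the difference that had led to these genes, is given without tests. At least 2-fold higher on day 8 were 17 of the 40, against 17.3% of all tested genes, and at least 2-fold lower were 8, against 13.6%. The median log2 fold change of the 40 was 0.77, and that of all tested genes 0.02. Fitted log2 fold changes were 6.02 for PLA2G4F, 5.28 for GPX2, 2.19 for ALOX12B, 1.57 for ALOX12, -1.67 for PLA2G4A, -2.77 for PTGES and -4.65 for GGT5. TBXAS1 had 3 counts on day 8 against 268 on day 0. For some genes called between days 6 and 1 the day 8 and day 0 levels lay closer together. The log2 fold change of LOC102178853 between days 8 and 0 was -0.01, that of GPX3 -0.23 and that of EPHX2 0.27. By day means, 15 of the 40 were highest on day 8, 7 on day 4, 6 on day 0, 5 on day 1, 4 on day 6, 2 on day 2 and 1 on day 3. These counts draw on the days that led to the choice of genes. The matching shares over all tested genes were not computed, so no trait of the set is read from them.

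Genes around the pathway that are not among the 74 were read from lists, again between days 6 and 1. The counts below stand against 26.3% higher and 30.7% lower among all tested genes. Of 6 tested prostanoid receptors 3 were higher and 3 lower (median -0.52). PTGFR, the receptor of prostaglandin F2alpha, averaged 9.87 CPM on day 6 against 64.2 CPM on day 1 and fell by 2.70 ± 0.098 (adjusted p = 2.31e-17). PTGER3, a prostaglandin E2 receptor, had 42 counts on day 6 against 1 on day 1 (ratio 42.2, 95% counting interval 7.17 to 1710, adjusted p = 3.36e-05). It had 79 counts over all libraries together and averaged 0.479 CPM on day 8. PTGER3 therefore entered the test through late days on which it was high. PTGER2, another E2 receptor, averaged 0.159 CPM on day 6 against 0.608 CPM on day 1 (adjusted p = 0.0421), a call lost in 9 alternatives with adjusted p up to 0.19.

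Prostaglandin transport and breakdown genes were higher in 4 of 5 cases and not called in 1 (median 0.92). SLCO2A1, the prostaglandin uptake transporter, averaged 25.8 CPM on day 6 against 6.10 CPM on day 1 and rose by 2.08 ± 0.107 (adjusted p = 2.26e-14). HPGD, which inactivates prostaglandins, had 36 counts on day 6 against 1 on day 1 (ratio 36.2, interval 6.09 to 1470, adjusted p = 5.93e-05), and PTGR1, a prostaglandin reductase, rose by 0.92 ± 0.058 (adjusted p = 1.06e-12). For receptors of leukotrienes and other oxidised lipids 2 of 3 were higher and 1 lower (median 2.85). The leukotriene B4 receptors LTB4R and LTB4R2 rose by 3.31 ± 0.408 and 2.85 ± 0.276 (adjusted p = 1.94e-07 and 3.38e-09), and CMKLR1, a receptor for chemerin and resolvin E1, fell by 2.73 ± 0.073 (adjusted p = 6.64e-20).

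For supply of polyunsaturated fatty acids 5 of 14 genes were higher, 6 lower and 3 not called (median -0.02), against 26.3% higher and 30.7% lower among all tested genes. Some of these calls were unstable, here named after their values were seen: DAGLB (lower) was lost in 10 alternatives with adjusted p up to 0.55, ACSL3 (lower) in 4 with up to 0.161, and ABHD6 (higher) in 1 with 0.0823. FABP5, the epidermal fatty acid binding protein, averaged 361 CPM on day 6 against 37.7 CPM on day 1 and rose by 3.26 ± 0.062 (adjusted p = 9.21e-23). FADS2 and FADS1, desaturases on the route from linoleic to arachidonic acid, fell by 2.48 ± 0.079 and 1.88 ± 0.058 (adjusted p = 2.08e-18 and 1.01e-18). In the epidermal acylceramide pathway, whose lipids are substrates of ALOX12B, 6 of 12 were higher, 3 lower and 3 not called (median 0.97). The 3 lower genes, here named after their values were seen, were UGCG, ELOVL4 and ELOVL1. Their log2 fold changes were -1.625, -0.695 and -0.292 (adjusted p = 2.31e-15, 0.00132 and 0.000242). ABCA12, the lipid transporter of lamellar granules, rose by 2.92 ± 0.269 (adjusted p = 1.45e-09). PNPLA1, the acylceramide transacylase, had 11 counts on day 6 and 0 on day 1, at least 3.68-fold higher against the floor of 3 counts (adjusted p = 0.00864). That call was lost without day 1 replicate 1 or day 1 replicate 2. PNPLA1 had 44 counts over all libraries together and averaged 0.582 CPM on day 8. It therefore entered the test through late days on which it was high. TGM5, a transglutaminase, had 2 counts on day 6 and 0 on day 1 (adjusted p = 0.219). Of 4 phospholipase A2 partners 2 were higher and 2 lower (median -0.04). PLA2R1, the receptor of secretory phospholipases A2, rose by 1.703 ± 0.067 (adjusted p = 1.19e-16) and ANXA1, annexin A1, fell by 0.34 ± 0.047 (adjusted p = 1.13e-06). PLAA, a phospholipase A2 activating protein, fell by 0.23 (log2 fold change -0.23 ± 0.082, adjusted p = 0.0217), a call lost in 5 alternatives with adjusted p up to 0.188.

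**Figure D5:**
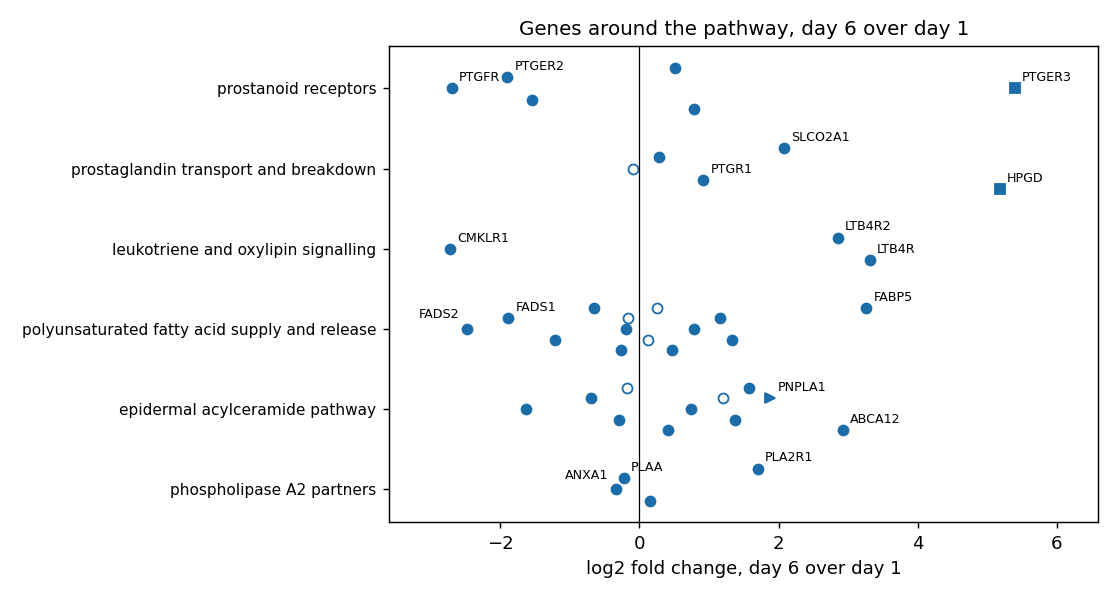
Log2 fold change, day 6 over day 1, of the tested genes in 6 lists around the pathway, 1 point per gene. Filled points were called, open points were not, squares are ratios of summed counts, the triangle is a lower bound, and up to 3 genes per list with the widest change are named (TGM5, with 2 and 0 counts, is not drawn). PTGFR, PTGER2, CMKLR1, FADS1 and FADS2 lie to the left of 0, and SLCO2A1, HPGD, LTB4R, LTB4R2 and FABP5 to the right.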

How the data were processed

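Per the labels' protocols, ribosomal RNA was depleted (Ribo-Zero Gold) before TruSeq library preparation. The submitters' processing notes name FastQC 0.10.1, HTSeq and DESeq2 1.16.1. Aligner, genome build and strand setting: not given in the sources used here, so reads of overlapping or antisense genes may be mixed. The authors' deposited values are estimated counts per gene and library, 90.0% of them whole, and were rounded before testing. The table's 7 columns of day means were not used. Gene order came from the RefSeq table of assembly ARS1.2. Genes called neighbours lay close together in its order of protein-coding genes, and another gene may lie between them.

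Genes passing edgeR's expression filter by day (15712) were fitted over all 14 libraries with day as a group (R 4.3.3, edgeR 4.0.16, limma 3.58.1, TMM scaling, 2-sided quasi-likelihood F tests, Benjamini-Hochberg adjustment over all tested genes, called at adjusted p under 0.05). The SE was computed as the absolute log2 fold change over the square root of F and understates the error of genes with few counts. A count of 3 over a day was the floor for folds against 0, and intervals (95%) and floors cover counting error only.

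The genes and lists were chosen with earlier results of these data known. Values by library are given for up to 4 tested genes per group with the widest range of day means of log2(CPM + 1), and other genes come from the lists, up to 3 each by size of change. Alternatives were DESeq2 1.42.0 as test or for size factors, no filter, a stricter filter (50 counts in 2 libraries), fewer days in the fit, a replicate block and leaving out each library.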

Additional observations from a re-analysis of the deposited data

How the results depend on the processing

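For day 6 against day 1, the 40 tested genes gave 824 values under the alternatives, of which 810 kept their direction and their side of the threshold, 9 lost the call, 1 gained it (PLA2G6 at 0.65, adjusted p = 0.0157 without day 6 replicate 1) and 4 changed sign. The 4 were uncalled values: ALOX12B at -0.50 without day 1 replicate 2 and -0.12 without day 6 replicate 2 (0.96 without day 1 replicate 1), LOC108634670 at -0.14 without day 1 replicate 1 (0.32 without day 1 replicate 2), and PLA2G6 at -0.17 without day 6 replicate 2. Fits that left out a library of another day could change this comparison little. Genes with few counts gave no value under the stricter filter. The 810 therefore overstate how stable the calls are. Leaving out each library in turn gave 17 to 22 higher and 10 lower calls for day 6 against day 1, 5 to 7 higher and 5 to 10 lower for day 2 against day 1, 6 to 10 and 6 to 8 for day 3 against day 2, 8 to 13 and 5 to 6 for day 4 against day 3, 10 to 15 and 12 to 13 for day 6 against day 4, and 33 to 35 in the F test over days. With DESeq2 as the test the counts for day 6 against day 1 were 20 higher and 10 lower. Replicate numbers did not pair the libraries: the deviations of same-numbered libraries correlated at -0.096 to 0.069 over 21 pairs of days, none above 0.1. With the replicate block, day 6 against day 1 gave 21 higher and 10 lower, day 2 against day 1 gave 7 and 9, day 4 against day 3 gave 11 and 6, and the F test 33. Of 56 called results for genes of the lists, 11 lost the call in at least 1 alternative, and none changed sign: DAGLB, PTGER2, FCER1G, PLAA, ACSL3, ABHD5, PNPLA1, S100A10, TBXA2R, ABHD6 and ELOVL4. Counts were low for some genes with unstable values: ALOX5 had 27 counts on day 6 against 3 on day 1, PLA2G2F 16 against 0, and ALOX12B had 10 and 13 counts in the day 6 libraries against 16 and 6 in those of day 1. Whether depth accounts for this was not tested.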

Other observations

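ALOXE3, the epidermal lipoxygenase that acts after ALOX12B in humans and mice, is not among the 74 genes and was chosen here after its values were seen. It had 1 and 2 counts in the day 0 libraries, 1 and 2 on day 1, 0 and 0 on day 2, 1 and 1 on day 3, 0 and 0 on day 4, 5 and 2 on day 6, and 24 and 18 on day 8.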
